A study of Mus musculus with 21 samples.

Results

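The genes described here are the 3 cardiac myosin heavy chains Myh6, Myh7 and Myh7b, taken by gene name from the 19096 genes of the deposited gene table. All 3 passed the filter on low counts and were among the 15216 genes tested. RNA had been sequenced from the hearts of 21 male C57BL/6NJ mice, 1 library per heart, in a study of heart failure with preserved ejection fraction. Mice started at 8 to 10 weeks of age on chow or on a high-fat diet (60% of energy), kept for 10 weeks. They also received an adeno-associated virus (AAV) carrying renin or a null vector, and hearts were taken 6 weeks after injection into the retro-orbital sinus. The 4 groups are chow with null vector (chow control, n = 4), chow with renin (chow renin, n = 6), the fat-rich diet with null vector (high-fat control, n = 6) and the same diet plus renin (high-fat renin, n = 5). Sample labels mark the groups without renin as "novirus", while the series description names a null vector. All mice share the C57BL/6NJ strain, and the labels give neither the promoter of the renin vector nor the part of the heart that was sampled.

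Myosin heavy chains are the motor proteins of the thick filament. Myh6 encodes the fast alpha chain, which dominates in the adult mouse ventricle, and Myh7 encodes the slow beta chain, which dominates before birth and returns in the loaded or failing heart. Thyroid hormone favours Myh6 over Myh7, and a shift from Myh6 to Myh7 is a classical sign of pathological hypertrophy. Myh7b is an older relative, expressed at a low level in heart and in slow skeletal muscle. Each of the 3 genes carries a microRNA (miRNA) in an intron, and these miRNAs belong to a circuit that adjusts the slow myosin programme.

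In the mouse genome GRCm38 with GENCODE M21 annotation, Myh6 (ENSMUSG00000040752) lies on the minus strand at chr14:54941921-54966927. Myh7 (ENSMUSG00000053093) lies next to it, upstream on the same strand, at chr14:54970684-54994626. Myh7b (ENSMUSG00000074652) lies on the plus strand at chr2:155611212-155634307. Mir208a sits in intron 29 of the 39-exon model of Myh6 at chr14:54949060-54949142, Mir208b in intron 31 of the 41-exon model of Myh7 at chr14:54975700-54975776, and Mir499 in intron 19 of the 42-exon model of Myh7b at chr2:155622880-155622958. The mature miRNAs are shown because they tie the 3 genes together; sequences are from RefSeq (GRCm38.p6), 5′ to 3′, with the seed (bases 2 to 8) in capitals.
mmu-miR-208a-3p: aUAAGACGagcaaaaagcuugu
mmu-miR-208b-3p: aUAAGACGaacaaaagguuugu
mmu-miR-499-5p: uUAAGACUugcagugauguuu
The miRNAs of Myh6 and Myh7 shared the seed UAAGACG and differed at 3 of 22 positions. No other mature miRNA among the 1738 in the table had that seed. The miRNA of Myh7b differed from that seed at 1 position. Levels of these miRNAs, and of Mhrt, a long noncoding RNA antisense to Myh7 at chr14:54968678-54974349, were not analysed here.

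Myh6 and Myh7 are near copies of each other, which bears on how reads can be assigned to them. Their coding sequences (5814 and 5805 bases) were 91.8% identical over 5800 aligned bases. Of the 31-base words in the main transcript of Myh7 (6135 bases), 32.2% also occurred in that of Myh6 (6113 bases). The longest run shared by both coding sequences had 245 bases, at coding bases 4246 to 4490 of Myh6 and 4240 to 4484 of Myh7, and is shown because reads inside it fit both genes.
Myh6 and Myh7 shared run: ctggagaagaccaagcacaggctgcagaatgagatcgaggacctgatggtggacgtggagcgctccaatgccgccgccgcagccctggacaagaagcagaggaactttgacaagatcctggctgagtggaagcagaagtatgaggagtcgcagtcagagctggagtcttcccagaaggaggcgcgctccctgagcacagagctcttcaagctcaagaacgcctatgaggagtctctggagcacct
Other stretches tell the genes apart. The gap-free window of 60 coding bases with the most differences had 27, at coding bases 3226 to 3285 of Myh6 and 3220 to 3279 of Myh7, shown here with the differing bases in capitals.
Myh6 window: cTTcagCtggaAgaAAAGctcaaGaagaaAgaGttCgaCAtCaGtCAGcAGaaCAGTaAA
Myh7 window: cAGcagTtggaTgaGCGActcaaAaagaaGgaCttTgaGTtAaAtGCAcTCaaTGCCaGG
Myh7b stood further off, with coding identities of 72.9% to Myh6 and 73.1% to Myh7 and a longest shared run of 33 bases with either. The split of reads between Myh6 and Myh7 was the quantifier's estimate, and a small share of Myh6 reads assigned to Myh7 would weigh more in Myh7. Mhrt overlaps the 3′ part of Myh7, and the strand setting of the libraries is not given in the sources used here, so reads of that stretch cannot be told apart by strand.

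Depth ran from 18.7 M to 29.3 M estimated reads per library. Comparisons between hearts use normalised read counts (CPM, read counts scaled to a common library size with TMM factors). Comparisons between genes use TPM, a transcript abundance that also corrects for length. Fold changes, standard errors (SE) and adjusted p come from edgeR's quasi-likelihood test with Benjamini-Hochberg adjustment over all 15216 genes, and a gene is called at an adjusted p under 0.05. Markers of atrial tissue separated 5 libraries (chow control 3, chow renin 1 and 3, high-fat control 3 and high-fat renin 3) from the other 16. The mean log2 CPM of the atrial markers was 5.63 to 6.86 in those 5 and at most 1.07 in the rest, so all groups held at least 1 such heart. Ventricular markers were high in all 21 libraries, with a mean log2 CPM of 10.4 to 10.8, while Myh1, Myh2 and Myh4 of fast skeletal muscle had 32, 38 and 6 estimated reads over all libraries together. The whole skeletal muscle list of 10 genes, which includes the creatine kinase gene Ckm that heart muscle also expresses, had a summed CPM of 1076 to 1622 per library (1105 to 1389 in high-fat renin, 1372 to 1622 in chow control and 1076 to 1553 in high-fat control). Of its 5 tested members, 2 fell in high-fat renin against chow control (Ckm and the slow troponin T gene Tnnt1; list median -0.52, 8.29% of all genes called) and 2 against high-fat control (Tnnt1 and the fast troponin I gene Tnni2; list median -0.57, 11.1% called), and their part in the differences of the myosins was not tested.

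By length-corrected level, Myh6 was the most abundant of the 3 genes by far, with a mean of 5037 TPM over 21 hearts and rank 18 of 23855 genes with reads. Leaving out mitochondrially encoded genes it ranked 5. Myh7 had a mean of 191 TPM (rank 307) and Myh7b one of 41.7 TPM (rank 1251). The genes also differed in how much they varied between hearts. The highest CPM was 1.68 times the lowest for Myh6, 1.64 times for Myh7b and 19.4 times for Myh7.

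Myh6, the alpha chain, was lower in both renin groups than in chow control, and lowest in high-fat renin. Its CPM was 34137, 35147, 29179.9 and 33184 in chow control. In chow renin it ran from 26787 to 29018 with a median of 27382. In high-fat control it ran from 24933 to 31053.5 with a median of 29541. The 5 high-fat renin hearts held 21769, 20951, 25870.1, 26293.5 and 23215. Both renin groups lay wholly below chow control, and high-fat renin lay wholly below chow renin. High-fat control overlapped with chow control, and also with high-fat renin, of which 3 of 5 hearts lay below all high-fat control hearts. Group means were 32912 ± 2614 (SD, n = 4), 27634 ± 819 (n = 6), 29116 ± 2139 (n = 6) and 23619.5 ± 2394 (n = 5) CPM in the order chow control, chow renin, high-fat control and high-fat renin.

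In the edgeR fit Myh6 fell by 0.48 on the log2 scale in high-fat renin against chow control (SE 0.08, adjusted p 0.0011). In that comparison 8.29% of all genes tested were called. It fell by 0.25 in chow renin against chow control (SE 0.08, adjusted p 0.0285; 13.5% of genes called), a call that was lost in 14 of 31 alternative analyses, among them the fit without a filter on low counts (-0.25, adjusted p 0.0698) and the removal of any of 8 single hearts. Renin on the high-fat diet, against the null vector on that diet, gave a fall of 0.30 (SE 0.07, adjusted p 0.0102; 11.1% of genes called). High-fat renin was also below chow renin, by 0.23 (SE 0.07, adjusted p 0.0262), in a comparison in which 22.6% of genes were called. That call was lost in 5 of 31 alternatives: with limma on the authors' normalised gene signal, with a score of circadian clock transcripts as a covariate (the clock score) and without high-fat renin 1, 2 or 5 (adjusted p up to 0.0879). The high-fat diet alone gave -0.18 (SE 0.08, adjusted p 0.405), with 0.0657% of genes called. The renin effect with the fat-rich diet less the effect with chow was -0.05 (SE 0.11, adjusted p 0.842), and 10.4% of genes were called for that difference. In mean CPM, high-fat renin stood at 0.718 times chow control and 0.811 times high-fat control. The comparisons share groups of hearts, so their results are not independent of each other.

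Myh7, the beta chain, was highest in high-fat renin and spread widely in both renin groups. Chow control hearts held 584, 459, 744 and 375 CPM. Chow renin ran from 295 to 2513 with a median of 1784, and high-fat control from 189.7 to 608 with a median of 355. The high-fat renin hearts held 3686, 3305, 2158, 1026 and 1041. All 5 high-fat renin hearts lay above every chow control and every high-fat control heart. In chow renin 5 of 6 hearts, from 1053 to 2513, lay above all chow control hearts, and the remaining heart, chow renin 6 at 295, lay below all of them. Group means were 540 ± 160 (SD, n = 4), 1631 ± 895 (n = 6), 377 ± 154 (n = 6) and 2243 ± 1239 (n = 5) CPM in the same order of groups.

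**Figure D1:**
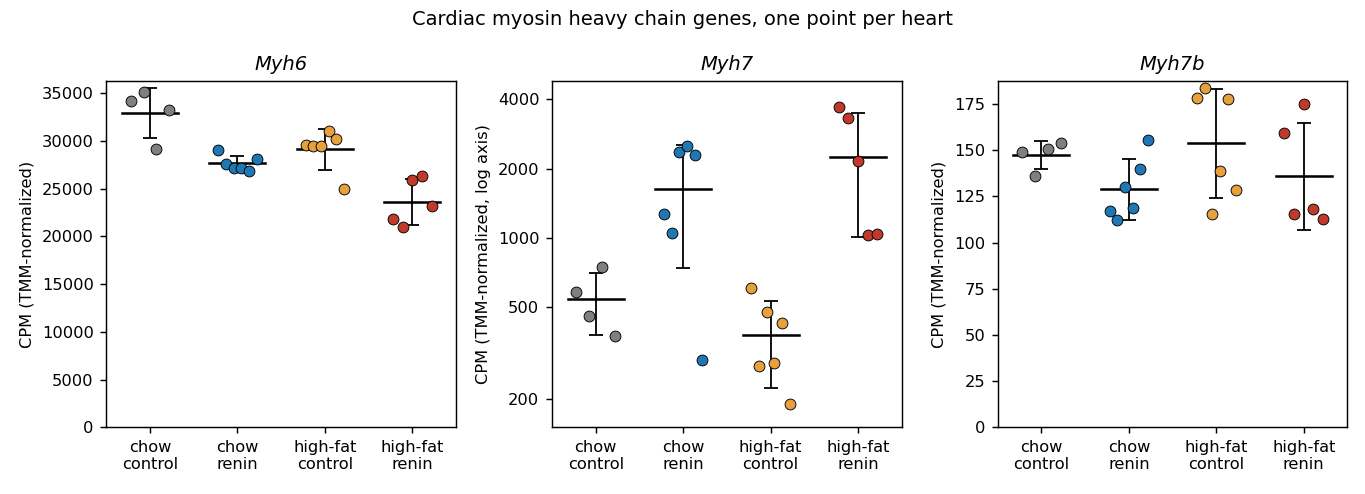
TMM-normalized CPM of Myh6, Myh7 (log axis) and Myh7b, with a point for each of the 21 hearts, horizontal lines at the group means and bars of ±1 SD. The 5 high-fat renin hearts had the lowest mean Myh6 (23619.5 CPM) and the highest mean Myh7 (2243 CPM), 1 chow renin heart lay at 295 CPM of Myh7, and Myh7b overlapped between all groups.

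Renin on the high-fat diet raised Myh7 by 2.57 on the log2 scale over high-fat control (SE 0.49, adjusted p 0.00371), or 5.95-fold in mean CPM. This call was lost in 1 of 31 alternative analyses, the edgeR fit with the clock score (2.07, adjusted p 0.512). Against chow control, high-fat renin was higher by 2.05 (SE 0.56, adjusted p 0.0308), or 4.15-fold in mean CPM. The call against chow control was lost in 8 of 31 alternative analyses: on the authors' signal (1.89), with the clock score (1.34), in the libraries low in atrial markers (2.24) and on leaving out any of 5 single hearts, chow control 1, 2 or 4 or high-fat renin 1 or 2 (as low as 1.79). On chow, renin gave a difference of 1.59 (SE 0.53) that missed the threshold with an adjusted p of 0.0571. It passed in 3 of 31 alternatives. With all hearts kept, 2 fits called it, DESeq2 (1.60, adjusted p 0.00338) and a fit with the replicate number as a term (1.80), a number that did not pair the hearts. The other was without chow renin 6 (1.81, adjusted p 0.0101), a heart singled out for its low Myh7, so that value is a description. High-fat renin did not differ from chow renin beyond the spread of the hearts (0.46, SE 0.47, adjusted p 0.546). The high-fat diet alone gave -0.52 (SE 0.50, adjusted p 0.754). The difference between the renin effects on the 2 diets was 0.98 (SE 0.69, adjusted p 0.441), so a larger renin effect on the high-fat diet was not shown.

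Myh7b, the distant relative, passed the test in no comparison and overlapped between every pair of groups compared. Chow control hearts held 149.1, 136, 151 and 154 CPM. Chow renin ran from 112 to 155 with a median of 124, high-fat control from 116 to 184 with a median of 158, and the high-fat renin hearts held 159, 115, 175, 118 and 113. Within the latter group 3 hearts lay below and 2 above all chow control hearts. Log2 differences ran from -0.20 (SE 0.14, adjusted p 0.434) in chow renin against chow control to 0.08 (SE 0.13, adjusted p 0.735) in high-fat renin against chow renin. High-fat renin against high-fat control gave -0.18 (SE 0.13, adjusted p 0.426) and against chow control -0.12 (SE 0.15, adjusted p 0.671).

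**Figure D2:**
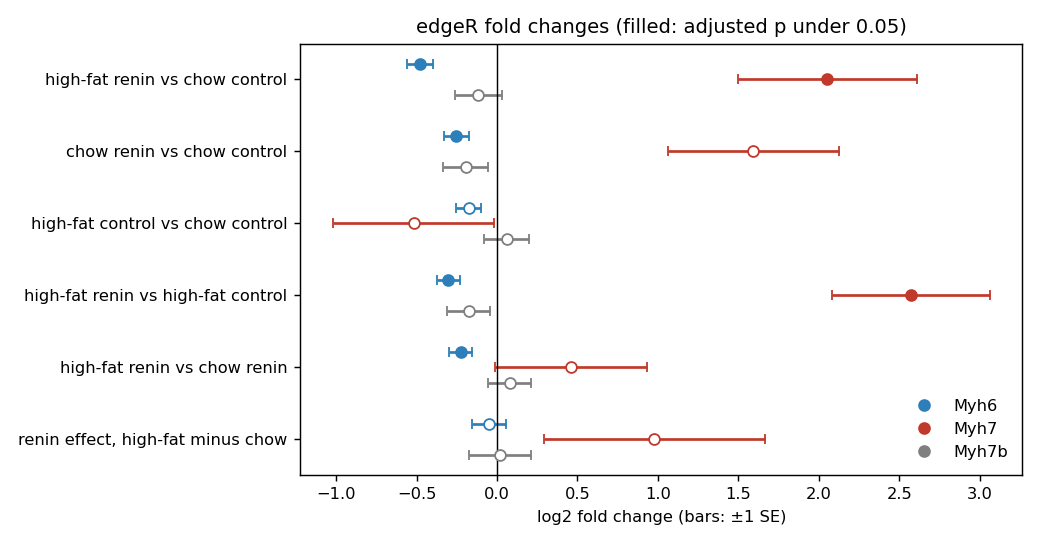
Log2 fold changes of Myh6, Myh7 and Myh7b with bars of ±1 SE in the 5 comparisons of groups and in the difference between the renin effects on the 2 diets, with filled points for an adjusted p under 0.05. Myh6 was called lower in 4 comparisons and Myh7 called higher in 2, with 2.57 and 2.05, while Myh7b was called in none.

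Ordered by mean CPM, Myh6 ran chow control, high-fat control, chow renin, high-fat renin, and only the last pair of neighbours had values that did not overlap. Myh7 ran high-fat renin, chow renin, chow control, high-fat control, and each pair of neighbours overlapped. The order for Myh7b was high-fat control, chow control, high-fat renin, chow renin, also with overlap at each step. High-fat control and chow renin, neighbours for Myh6, were not tested against each other. The sum of Myh6 and Myh7 CPM averaged 33452 ± 2498 (SD, n = 4) in chow control, 29493 ± 2215 (n = 6) in high-fat control, 29265 ± 693 (n = 6) in chow renin and 25863 ± 1742 (n = 5) in high-fat renin. These sums were not tested.

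The ratio of the 2 chains, from TPM, set Myh7 at 1.51%, 1.06%, 2.18% and 0.947% of Myh6 in the chow control hearts. In chow renin it ran from 0.885% to 8.37% with a median of 5.88%, and in high-fat control from 0.453% to 1.83% with a median of 1.07%. The 0.453% belonged to high-fat control 6, in which 49.9% of Myh6 TPM came from a short transcript model. From full-length models alone the lowest value of high-fat control was 0.706%. The high-fat renin hearts stood at 15.0%, 13.6%, 7.87%, 3.29% and 3.81%. All 5 of these lay above every heart of both control groups. The alpha chain thus remained the more abundant transcript in each of the 21 hearts.

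On the log2 scale the ratio was higher by 2.85 in high-fat renin than in high-fat control (two-sided exact permutation test, p = 0.00216, the smallest that these group sizes allow, adjusted over 6 comparisons to 0.013). This corresponds to 7.2-fold between geometric means. Against chow control the difference was 2.43 (exact permutation p = 0.0159, adjusted 0.0476). That call was lost in 11 of 14 alternatives, among them the removal of any of its 9 hearts (2.17 to 2.71). With any heart removed, too few arrangements were left for it to pass at its rank among the 6 comparisons. Those losses therefore follow from the group sizes and do not measure stability. On chow, renin gave 1.66 (exact permutation p = 0.0524, adjusted 0.105), and did not pass with any other heart left out; without chow renin 6, the heart with the lowest ratio of its group, it gave 2.12, again only a description. The high-fat diet alone gave -0.42 (exact permutation p = 0.367, adjusted 0.382), and high-fat renin against chow renin gave 0.76 (exact permutation p = 0.314, adjusted 0.382). The renin effect differed between diets by 1.18, with an exact permutation p of 0.382 when renin labels were exchanged within each diet.

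**Figure D3:**
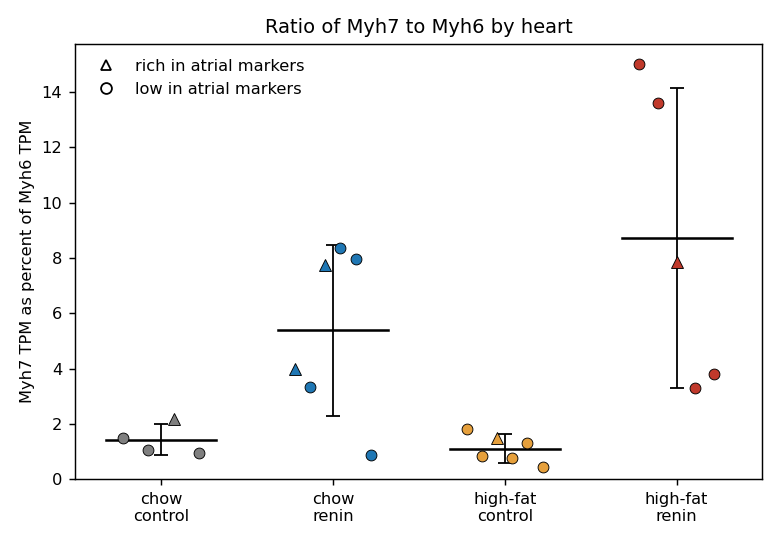
Myh7 TPM as a percent of Myh6 TPM in each of the 21 hearts by group, with group means, bars of ±1 SD and triangles for the 5 hearts rich in atrial markers. High-fat renin hearts ran from 3.29% to 15.0%, all above the 2 control groups, and 1 chow renin heart lay at 0.885%.

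These results were computed again without the hearts rich in atrial markers. With only the 16 libraries low in atrial markers, Myh7 in high-fat renin over high-fat control was higher by 2.65 (adjusted p 0.0195) and Myh6 lower at -0.34 (adjusted p 0.0157). Against chow control, with those libraries, Myh6 stood at -0.58 (adjusted p 0.0013), while Myh7 at 2.24 no longer passed (adjusted p 0.0802). The ratio against high-fat control was 2.93 in them (exact permutation test, adjusted p 0.0476). Against chow control it was 2.63 and did not pass (exact permutation test, adjusted p 0.0857). With 4 high-fat renin and 3 chow control hearts left, too few arrangements remained for that comparison to pass at its rank.

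Transcripts of the circadian clock moved with the groups. The clock score, the mean log2 CPM of clock genes on the Dbp side minus that of genes on the Arntl side, was 3.53 to 3.84 in chow control and 3.31 to 3.61 in high-fat control. In chow renin it was 2.98 to 3.27 and in high-fat renin 2.18 to 3.36, so both controls lay above chow renin. With that score as a covariate in the edgeR fit, Myh7 in high-fat renin over high-fat control was 2.07 (adjusted p 0.512) and Myh6 was -0.20 (adjusted p 0.74), and 0 genes of the whole table were called, against 1696 without it. At an unadjusted p under 0.05 edgeR counted 1026 genes with the score and 4026 without it, and no other tool was run with the score. The mean score was lower with renin on chow (3.13 against 3.75) and on the high-fat diet (2.93 against 3.49). As a covariate it therefore cannot be fully told apart from renin. The labels give no time of day for the collection, and the part of the clock genes in the myosin results was not tested. Chow renin 6, with the lowest Myh7 of the renin hearts, had a clock score of 3.07, inside the range of its group.

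Markers of other cells were also compared between groups. The mean log2 CPM of 4 fibroblast markers was 7.05 to 7.59 in high-fat renin, against 6.46 to 7.12 in chow control and 6.37 to 7.58 in high-fat control. These ranges overlapped. In high-fat renin 0 of the 4 were called against chow control (8.29% of all genes called) and 0 against high-fat control (11.1%), while 1 was higher than in chow renin (22.6%). Neuronal and glial markers were at 4.08 to 4.91 in chow renin and at most 2.95 in all other groups. The summed CPM of 7 ventricular muscle markers was 20450 to 22616 in high-fat renin (median 21268) and 18038 to 23899 in high-fat control (median 21165). In chow control it was 21214 to 25745 and in chow renin 17033 to 21867. Their part in the myosin results was not tested, and in bulk heart samples fewer muscle cells and less myosin RNA per cell cannot be told apart.

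Each gene has several transcript models, and short models weigh heavily in TPM. For Myh6 the 2 full-length models (6113 and 6008 bases) took 95.0% to 99.0% of the gene's estimated reads but 46.3% to 82.3% of its TPM. A short protein-coding model with 542 bases at the 3′ end of the gene (chr14:54941928-54944511), accounted for most of the rest. It held 14.8% to 27.4% of Myh6 TPM in 20 hearts from 0.773% to 1.68% of the reads. In high-fat control 6 it held 49.9% of TPM from 4.46% of the reads. That heart had the lowest Myh6 CPM of its group (24933) and, at 6800 TPM, the highest Myh6 TPM of all 21 hearts.

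**Figure D4:**
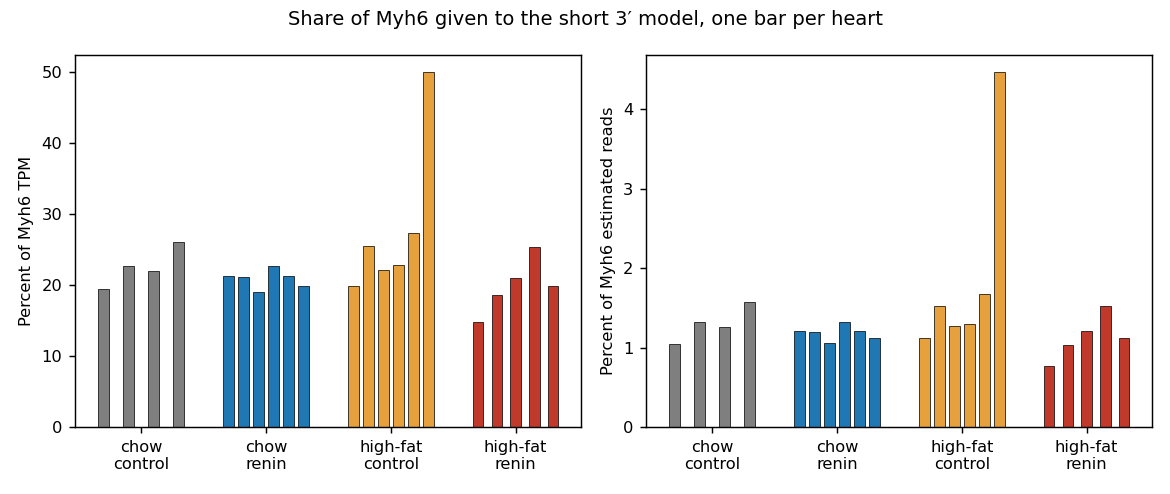
Share of Myh6 TPM (left) and of Myh6 estimated reads (right) assigned to the short 3′ model of 542 bases, with a bar for each heart by group. High-fat control 6 stands at 49.9% of TPM and 4.46% of reads, and the other 20 hearts at no more than 27.4% and 1.68%.

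For Myh7 the full-length models took 71.6% to 92.2% of TPM. A retained-intron model of 595 bases (chr14:54972722-54973528), which lies within the stretch overlapped by Mhrt, held 5.35% to 22.1% of Myh7 TPM from 0.301% to 1.49% of the reads. For Myh7b the full-length model took 90.0% to 93.9% of reads and 35.1% to 49.0% of TPM. A retained-intron model of 674 bases held a median of 41.9% of Myh7b TPM from 5.88% of the reads. With the ratio taken from full-length models alone, high-fat renin exceeded high-fat control by 2.84 (exact permutation test, adjusted p 0.013), and the 5 high-fat renin hearts stood at 16.8%, 15.7%, 8.21%, 3.84% and 4.43% of Myh6.

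Across all 21 hearts, log2 levels of Myh6 and Myh7 were inversely related, with Pearson's r of -0.60 (permutation p = 0.00405, adjusted over 3 pairs 0.0121) and Spearman's rho of -0.59 (permutation p = 0.00522, adjusted 0.0157). Without high-fat renin 1 and 2, the hearts farthest from the median, r was -0.39. After each group's mean was removed r was -0.24 (permutation p = 0.265, adjusted 0.765), so within groups the sign was the same and the relation did not pass the test. Myh6 with Myh7b gave r = 0.30 (permutation p = 0.193, adjusted 0.227), and Myh7 with Myh7b gave r = -0.27 (permutation p = 0.227, adjusted 0.227).

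The genes whose levels followed each myosin most closely were ranked by Spearman's rho over the 21 libraries among 8101 genes with a mean of at least 10 CPM; this is a description, since all genes share libraries and groups. For Myh7 the highest was Acta1, the skeletal alpha actin (rho 0.86), then Myot, the Z-disc protein myotilin (0.85), Hbegf, a growth factor of the EGF family (0.85), Xirp2, an actin-binding protein of the intercalated disc (0.84) and Ell2, an elongation factor of transcription (0.84). The lowest were Cox7a1, the muscle form of a cytochrome oxidase subunit (-0.92), Abca7 (-0.89) and Sec31b (-0.88). For Myh6 the highest were Dglucy (0.95), Agtr1a, the angiotensin II type 1a receptor (0.94), Amotl2 (0.92), Cpeb3 (0.91) and Ywhae (0.91). Its lowest were Rsad2, an interferon-induced protein (-0.90), Washc4 (-0.88) and Col5a2, a fibrillar collagen chain (-0.85). Myh7b was followed by Hnrnpm, a splicing regulator (0.83), Cog7 (0.82), Zfand5 (0.75), Pgm5 (0.74) and Blcap (0.73). Lowest for Myh7b were Mt2 (-0.75), Mt1 (-0.75) and Pmm1 (-0.70).

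Chow renin 6, the heart of its group with little Myh7, also had the lowest Acta1, Nppa, Nppb and Ankrd1 of that group. Its Acta1 was 41.9 CPM against 383 to 724 in the other 5, its Ankrd1 was 499 against 1219 to 1807, and its Nppa was 54.7 against 175 to 462. Nppb did not set it apart, at 48.2 against 54.9 to 196. In high-fat renin the order of hearts differed between genes: high-fat renin 5, with 1041 CPM of Myh7, held 2291 CPM of Acta1, close to the 2499 of high-fat renin 1. Acta1 rose by 3.91 in high-fat renin over high-fat control (SE 0.57, adjusted p 0.00106), and its renin effect differed between diets (3.04, SE 0.76, adjusted p 0.0145). Whether that difference was larger than the one of Myh7 was not tested.

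Of 11 other class II myosin heavy chains, 5 had enough reads to be tested. In high-fat renin over high-fat control, where 11.1% of all genes were called, 1 of these was, Myh10, the nonmuscle chain IIB, which rose by 0.80 (SE 0.15, adjusted p 0.00306), also over chow control (0.64, adjusted p 0.0269). The other 4, Myh8, Myh9, Myh11 and Myh14, were called in none of the 6 comparisons. The median log2 difference of the list was -0.01 against high-fat control, the same as over all genes. The skeletal and developmental chains Myh1, Myh2, Myh3, Myh4, Myh13 and Myh15 had at most 44 estimated reads each over the 21 libraries.

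The light chains bind the neck of the heavy chain. In high-fat renin against chow control 1 of 6 rose and 2 fell, where 8.29% of all genes were called, with a median of -0.46 against 0.01 over all genes. That median includes the atrial chains Myl4 (-0.66) and Myl7 (-0.90), neither called, and the atrial markers had a median of -0.72 in the same comparison. Myl2, the ventricular regulatory light chain, fell by 0.41 (SE 0.09, adjusted p 0.00922) and Myl3, the ventricular essential light chain, by 0.32 (SE 0.10, adjusted p 0.0463). Myl1, the fast skeletal essential chain, rose by 1.03 (SE 0.28, adjusted p 0.0281). Against high-fat control Myl2 fell by 0.32 (adjusted p 0.0194) and no other light chain was called, with a list median of -0.15 (11.1% of all genes called) and an atrial marker median of -0.06. The atrial chains Myl4 and Myl7 were not called in any comparison and were high only in the 5 atrial-rich libraries.

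Of 15 tested partners, chaperones and turnover factors of myosin, 4 rose and 0 fell in high-fat renin over high-fat control at an adjusted p under 0.05, with a median of 0.19 over the list and -0.01 over all genes. Over all genes 11.1% were called in that comparison. The 4 were Myom1 and Myom3, which cross-link thick filaments at the M-band (0.45, adjusted p 0.00267, and 0.58, adjusted p 0.0325), Hsp90aa1, a chaperone used in myosin folding (0.66, adjusted p 0.00625), and Mybpc3, cardiac myosin-binding protein C (0.43, adjusted p 0.0497). Against chow control Hsp90aa1 rose (0.65, adjusted p 0.0162) and Mylk3, the kinase of the ventricular light chain, fell by 0.30 (adjusted p 0.0416). In chow renin against chow control, where 13.5% of all genes were called, 1 of the 15 was, Unc45b, a myosin chaperone, which fell by 0.26 (adjusted p 0.0363).

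**Figure D5:**
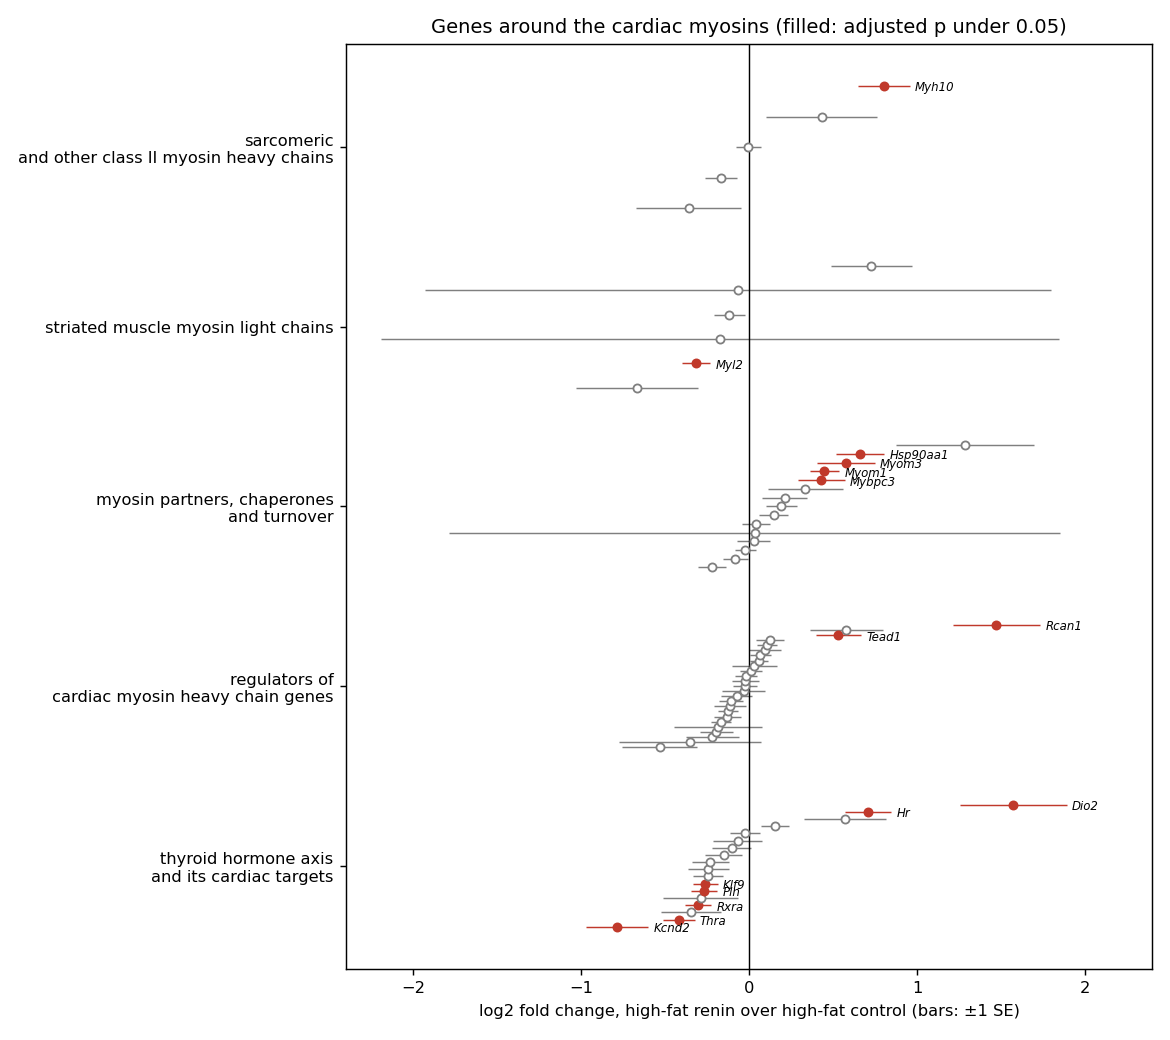
Log2 fold changes in high-fat renin over high-fat control, with bars of ±1 SE, for the tested genes of 5 lists around the cardiac myosins, filled and named where the adjusted p was under 0.05. Rcan1 (1.47) and Dio2 (1.57) lie farthest to the right and Kcnd2 (-0.79) lies farthest to the left among the filled points.

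Among 25 tested regulators of the cardiac myosin genes, 2 rose and 0 fell in high-fat renin over high-fat control at an adjusted p under 0.05. That share is below the 11.1% called over all genes, so the count is no result about the list. Tead1, a transcription factor that binds the MCAT element of muscle promoters, rose by 0.53 (SE 0.13, adjusted p 0.0163). Its CPM was 203, 139, 105, 103 and 152 in the high-fat renin hearts and 79.3 to 108 in high-fat control, so 2 of the 5 hearts overlapped with the controls. Against chow control, at 91.8 to 132 CPM, Tead1 overlapped and was not called (0.33, SE 0.15, adjusted p 0.193). The renin effect on Tead1 differed between diets by 0.69 (SE 0.20, adjusted p 0.0267). Rcan1, an inhibitor of calcineurin and itself a calcineurin target, rose by 1.47 (SE 0.26, adjusted p 0.00243) and by 1.31 over chow control (SE 0.30, adjusted p 0.012). Its CPM was 314, 156, 86.0, 79.1 and 162 in high-fat renin against 48.5 to 64.3 in high-fat control, with no overlap. Rcan1 also differed in its renin effect between diets (1.33, SE 0.38, adjusted p 0.0302).

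Med13, Sox6 and Purb, known parts of the slow myosin circuit, did not pass the test on the high-fat diet. Med13, a Mediator subunit and target of miR-208a, gave -0.02 in high-fat renin over high-fat control (SE 0.06, adjusted p 0.881). Sox6, a repressor of slow-fibre genes and target of these miRNAs, gave -0.03 (SE 0.13, adjusted p 0.905). Purb, a repressor that binds single-stranded DNA of the myosin genes, gave 0.11 (SE 0.06, adjusted p 0.28). On chow, renin raised Purb by 0.33 (SE 0.07, adjusted p 0.000773) and Tead4 by 0.51 (adjusted p 0.0486), and Gata4, a cardiac transcription factor, fell by 0.27 (adjusted p 0.0339). These 3 of 25 were the genes of the list called in that comparison, a share near the 13.5% called over all genes.

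The MCAT element is read as GGAATG on one strand and CATTCC on the other. It was searched on both strands of the 200 bases from -250 to -51 of the RefSeq start site (counted as 0). It was present there in 10.7% of the 32851 promoters listed by RefSeq. Myh6 and Myh7 each held a match, at -206 and -201, shown in capitals in the sequences of chr14:54966658-54966857 and chr14:54994677-54994876 (GRCm38.p6, minus strand). A short GENCODE model of Myh6 (376 bases) starts further upstream, at position 54966927, so the Myh6 window lies downstream of that start, inside the span of that model.
Myh6 promoter: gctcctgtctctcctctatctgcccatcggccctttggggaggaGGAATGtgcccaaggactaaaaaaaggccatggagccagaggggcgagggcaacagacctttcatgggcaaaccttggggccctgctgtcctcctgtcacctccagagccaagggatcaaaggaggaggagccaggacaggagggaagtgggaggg
Myh7 promoter: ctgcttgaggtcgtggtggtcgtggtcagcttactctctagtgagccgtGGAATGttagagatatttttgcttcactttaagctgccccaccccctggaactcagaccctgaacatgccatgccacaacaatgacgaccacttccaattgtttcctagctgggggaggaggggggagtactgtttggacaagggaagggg
The window of Myh7b held no match to these letters. RefSeq lists a further start of Myh7 at position 54994549, and the same window before that start held none. A match is a description of the letters, and no binding was measured.

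Thyroid hormone sets the balance of Myh6 and Myh7 in rodents. Of 18 tested genes of the hormone's axis and its cardiac targets, 2 rose and 5 fell in high-fat renin over high-fat control, where 11.1% of all genes were called, with a median of -0.24 against -0.01 over all genes. Against high-fat control Thra, the main thyroid hormone receptor of the heart, fell by 0.42 (SE 0.09, adjusted p 0.00629), while Thrb gave -0.24 (SE 0.12, adjusted p 0.206). The other genes that fell against high-fat control were Rxra, the partner receptor (-0.31), Klf9, a hormone-induced transcription factor (-0.26), Pln, the inhibitor of the calcium pump (-0.27), and Kcnd2, a potassium channel subunit (-0.79, SE 0.19, adjusted p 0.0103). The 2 that rose were Hr, a corepressor that is itself induced by the hormone (0.71, SE 0.14, adjusted p 0.00305), and Dio2, the deiodinase that makes active hormone (1.57, SE 0.32, adjusted p 0.00382). Against chow control 1 gene of the list rose and 3 fell (8.29% of all genes called): Dio2 rose by 1.79 (adjusted p 0.00584), and Kcnd2 (-0.90, adjusted p 0.00939), Klf9 (-0.32, adjusted p 0.0181) and Pln (-0.32, adjusted p 0.0213) fell.

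Dio2 was a low transcript. Its CPM was 8.60, 3.56, 4.13, 2.93 and 4.95 in high-fat renin, against 0.809 to 2.85 in high-fat control and 0.776 to 2.49 in chow control. It also rose with renin on chow, by 1.30 (SE 0.37, adjusted p 0.0189). In that comparison 1 of the 18 genes rose and 3 fell, with 13.5% of all genes called. The 3 that fell were Adrb1, the beta-1 adrenergic receptor (-0.41, adjusted p 0.0269), Rxrg (-0.31, adjusted p 0.0288) and the transporter gene Slc16a10 (-0.38, adjusted p 0.0356). The renin effect on Dio2 did not differ between diets beyond its error (0.27, SE 0.49, adjusted p 0.808).

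The authors' deposited table gives a log2 fold change for the high-fat diet with virus, with no reference group named in it. In the authors' deposited table Myh6 stands at -0.46 (adjusted p 2.98e-05), Myh7 at 1.55 (adjusted p 0.000552) and Myh7b at -0.07 (adjusted p 0.612).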

How the data were processed

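Per the labels, RNA from 21 hearts was sequenced at a service laboratory. Per the submitters' processing notes, the tools and builds were Salmon 1.10.2, DESeq2 1.40.2, GRCm38 and mm10. The authors deposited, for each library, a transcript table with estimated counts (expected counts, with decimals) and TPM. A gene table deposited by the authors gives a normalized signal per library, close to gene TPM times a factor per library for most genes, and the authors' log2 fold change and adjusted p-value. Transcripts were summed to genes with GENCODE M21 (97.95% of 119215 transcripts matched), and gene sums were rounded to whole counts. These estimated counts were tested with edgeR 4.0.16 (TMM, filterByExpr, robust quasi-likelihood fit) in 1 model of 4 groups over 21 libraries; 15216 genes were tested. The Myh7 to Myh6 ratio used gene TPM and two-sided exact permutation tests of mean log2 ratios, adjusted over 6 comparisons. The ratio's interaction test exchanges renin labels within each diet, which assumes no renin effect under the null. Marker scores are mean log2 CPM with a prior count of 2.

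The 3 genes and all gene lists were chosen with earlier results of these data known, so their counts are not independent evidence. Named genes were the 3 myosins, up to 4 genes per list called in high-fat renin with the smallest p, fixed regulators, and the 5 highest and 3 lowest by Spearman's rho. Where 5 or fewer genes made up a count, they were named after their values were seen. Same-numbered libraries did not pair: across 28 same-number pairs the correlation of deviations had a median of 0.074. Replicates were separate hearts, per the labels. Alternatives were limma 3.58.1 on log2(TPM + 1) and log2(TPM + 0.1), limma on the authors' signal, DESeq2 1.42.0, RLE factors, no filter, a replicate block, covariates, and leaving out libraries. Depth of 18.7 M to 29.3 M reads gave at least 4327 estimated reads for Myh7 in every heart. Statistical scripts were tested on simulated data.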

Additional observations from a re-analysis of the deposited data

Results flagged for a closer look

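Outliers were sought in 32 groups of 4 to 6 hearts (8 measures in 4 groups) as the highest or lowest heart whose gap to its neighbour was a large share of the group's range; chance flags about 1 in 20 groups, and 4 were found. High-fat control 6 had the lowest Myh6 level of its group at 24933 CPM, and the highest at 6800 TPM. In the same heart the short 3′ model of Myh6 (542 bases) held 49.9% of that TPM. Chow renin 1 had the highest Myh6 TPM of its group at 5745. No difference between the renin effects on the 2 diets passed its test for the 3 genes or the ratio.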

How the results depend on the processing

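Directions of Myh6 and Myh7 held in the 5 comparisons of groups under all 31 alternatives. Myh6 in chow renin against chow control no longer passed without the filter (-0.25), with limma on log2(TPM + 1) or log2(TPM + 0.1) (-0.17 in both), on the authors' signal (-0.28), with a replicate block (-0.23) or with the clock score (-0.13). The clock score also ended the calls of Myh6 in high-fat renin against chow control (-0.32), high-fat control (-0.20) and chow renin (-0.19), and of Myh7 against chow control (1.34) and high-fat control (2.07). The authors' signal ended those of Myh6 against chow renin (-0.26) and Myh7 against chow control (1.89). Myh7 in chow renin against chow control passed with DESeq2 (1.60) and the replicate block (1.80). In libraries low in atrial markers, chosen after seeing the data, Myh7 in high-fat renin against chow control (2.24) no longer passed. Nor did the ratio of that comparison (2.63), for which too few arrangements were left to pass at its rank. With all 9 hearts, the untransformed ratio of that comparison did not pass either (7.29 percentage points). The replicate block changed no other call of the 3 genes.

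Leaving out a heart in turn, Myh6 in chow renin against chow control ran from -0.31 to -0.21, losing its call without chow control 1, 2 or 4 or chow renin 1, 2, 3, 4 or 5. Myh6 in high-fat renin against chow renin ran from -0.27 to -0.19, losing it without high-fat renin 1, 2 or 5. Myh7 in high-fat renin against chow control ran from 1.79 to 2.25, losing it without chow control 1, 2 or 4 or high-fat renin 1 or 2. The matching ratio ran from 2.17 to 2.71 and lost its call without any of its 9 hearts. With any heart removed, too few arrangements were left for it to pass at its rank. Myh7 in chow renin against chow control ran from 1.43 to 1.81 and the ratio from 1.47 to 2.12, passing only without chow renin 6.

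Genes called in high-fat renin against chow control numbered 694 and 719 with limma on log2(TPM + 1) and log2(TPM + 0.1), 779 on the authors' signal and 0 with the clock score, and 565 to 1723 with a heart left out (moved over 1.5 times without chow control 1, 2 or 4 or high-fat renin 1, 2 or 5). Against high-fat control they numbered 899 on the authors' signal, 0 with the clock score and 696 to 2394 with a heart left out (high-fat renin 1, 2 or 5). For the diet alone the 10 became 117 with DESeq2, 91 and 120 with limma on the TPM values, 5 on the authors' signal, 0 with the replicate block, 4 with the atrial score, 16 with the clock score, 0 in libraries low in atrial markers and 0 to 57 with a heart left out. The cause was not tested. At an unadjusted p under 0.05, edgeR counted 1154 genes against chow control and 1026 against high-fat control with the clock score, and for the diet alone 1519 with the replicate block and 1431 in libraries low in atrial markers. With all hearts kept, exact tests between 2 groups could reach at best an unadjusted p of 0.00216 to 0.00794. The effect of reads shared by Myh6 and Myh7 on the Myh7 level was not tested.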
